A study of Mus musculus with 6 samples.

Results

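The matrix metalloproteases (Mmp), the ADAMTS proteases (Adamts) and the tissue inhibitors of metalloproteases (Timp) were examined in skin wounds of diabetic mice. Members were chosen by name, as protein-coding mouse genes whose symbol was Mmp, Adamts or Timp followed by a number and, in some, a letter. They were 45 of the 33184 genes in the table, 22 Mmp, 19 Adamts and 4 Timp. Mmp1a was kept as a protein-coding gene of RefSeq, although the GENCODE vM21 annotation lists it as a polymorphic pseudogene.

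All mice were db/db, an obese and diabetic line without a working leptin receptor, so no library came from a non-diabetic animal. Round wounds of 6 mm through the whole skin were made on the back. At 1 day post-injury (dpi1) the skin around the wound was injected with a control siRNA (NC) or with siRNA against Sfrp2, which encodes a secreted Frizzled-related protein, and at dpi4 whole wound tissue was frozen. Each group had 3 RNA-seq libraries, NC 1 to 3 and SFRP2-siRNA 1 to 3. The sample titles carry day 3 instead, without saying what it is counted from. The study lists 3 siRNA sequences under the same numbers as the SFRP2-siRNA samples, so each of those libraries may have received its own sequence, which cannot be told apart from a difference between animals. The NC samples are numbered likewise, although a single control sequence is listed, so the numbers may only count replicates. Neither the age of the mice nor whether each library was a separate mouse is stated, and p-values measure only the spread between these libraries.

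Matrix metalloproteases are zinc proteases that cut collagens, gelatin and other matrix proteins, most of them made as inactive proenzymes. In a healing wound they let keratinocytes, fibroblasts and leukocytes pass through matrix and clear damaged collagen. ADAMTS proteases trim procollagens and cut large proteoglycans such as versican and aggrecan, and the Timp proteins block metalloproteases by binding to the active site, Timp3 several ADAMTS proteases as well.

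The siRNA target went against its label. In NC 1, 2 and 3, Sfrp2 (ENSMUSG00000027996) stood at 11.6, 40.6 and 14.1 FPKM (fragments for each kilobase of a gene, relative to all those mapped in the library). In the SFRP2-siRNA-labelled libraries 1, 2 and 3 it stood at 50.6, 54.6 and 55.2 FPKM, above every NC library. Its log2 fold change was 1.45 (SE 0.43, adjusted limma p 0.518), and 1.12 without NC 1. Directions are therefore given for the libraries as labelled and not for a loss of Sfrp2. The values implied totals of 42.9 M to 47.1 M reads a library (M, mega). NC 1 stood apart, since mitochondrially encoded genes took 35.8% of its summed FPKM against 11.8% to 22.2% in the other libraries. The library labelled SFRP2-siRNA 1 also stood apart, with a summed 24.7 FPKM of 9 hair follicle markers against 2574 to 5504 FPKM elsewhere. Values without these libraries are given where they move a result. Markers of fibroblasts, keratinocytes, macrophages and skeletal muscle were present in all 6 libraries, so the tissue was a mixture.

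Most members had a higher level in the SFRP2-siRNA-labelled libraries, by small amounts, and none passed the test after adjustment. A mean of at least 0.5 FPKM was reached by 31 of the 45 members, which were tested with the other genes above that level, 16005 in all. Of the 31, 27 had a positive log2 fold change (SFRP2-siRNA-labelled libraries minus NC, on log2(FPKM + 1)) and 4 a negative one, beside 71.8% positive over all genes tested. The median log2 fold change was 0.55 over the members and 0.13 over all genes tested, and 24 members lay above the latter. The members' median was 0.32 without NC 1 and 0.36 without the library labelled SFRP2-siRNA 2, where that over all genes was 0.066 and 0.14. Without the library labelled SFRP2-siRNA 1 the members' median was 0.38 and that over all genes 0.15. With median-of-ratios scaling both medians shifted, to 0.41 and 0.00. By family the median was 0.60 for Mmp, 0.26 for Adamts and 0.17 for Timp, and with median-of-ratios scaling it was 0.47, 0.13 and 0.0089.

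No member had an adjusted p under 0.05 in limma, and the smallest adjusted p of a member was 0.518. Of all genes, 0.0% had an adjusted p under 0.05 together with an absolute log2 fold change above 1. At an unadjusted limma p under 0.05 there were 10 members, all higher, which is 32.3% of those tested beside 9.58% of all genes (6.72% higher and 2.86% lower). Limma voom on reads recovered from the FPKM also gave 10 members, beside 9.68% of genes (6.89% higher), and its smallest adjusted p of a member was 0.513. The groups did not overlap for these 10 limma members, beside 17.8% of all genes, 13.9% higher and 3.92% lower. They were Mmp2, Mmp3, Mmp8, Mmp14, Mmp23, Mmp27, Adamts2, Adamts14, Adamts15 and Timp2. Without NC 1, 5 members had an unadjusted p under 0.05 in limma, beside 5.54% of all genes. These were Mmp2, Mmp14, Mmp23, Mmp27 and Adamts2. Without the library labelled SFRP2-siRNA 2 there were 4, namely Mmp2, Mmp3, Mmp23 and Mmp27, beside 5.92% of all genes. Without the library labelled SFRP2-siRNA 1 there were 8, beside 9.2% of all genes. Of these, 7 were higher (Mmp2, Mmp3, Mmp13, Mmp14, Mmp23, Mmp27 and Adamts14) and Mmp28 was lower. Scaling to equal summed FPKM without the mitochondrially encoded genes left 5, namely Mmp2, Mmp3, Mmp8, Mmp23 and Mmp27, beside 6.64% of all genes. With that scaling 5 members had groups that did not overlap, all higher, beside 4.42% of all genes higher and 5.9% lower. They were Mmp2, Mmp14, Mmp23, Mmp27 and Timp2. The groups of Mmp3, Mmp8, Adamts2, Adamts14 and Adamts15, apart as deposited, overlapped with it. Below, groups are called apart for the deposited values unless a scaling is named. With median-of-ratios scaling, 6 members had groups that did not overlap, all higher, beside 5.27% of all genes higher and 7.87% lower.

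**Figure D1:**
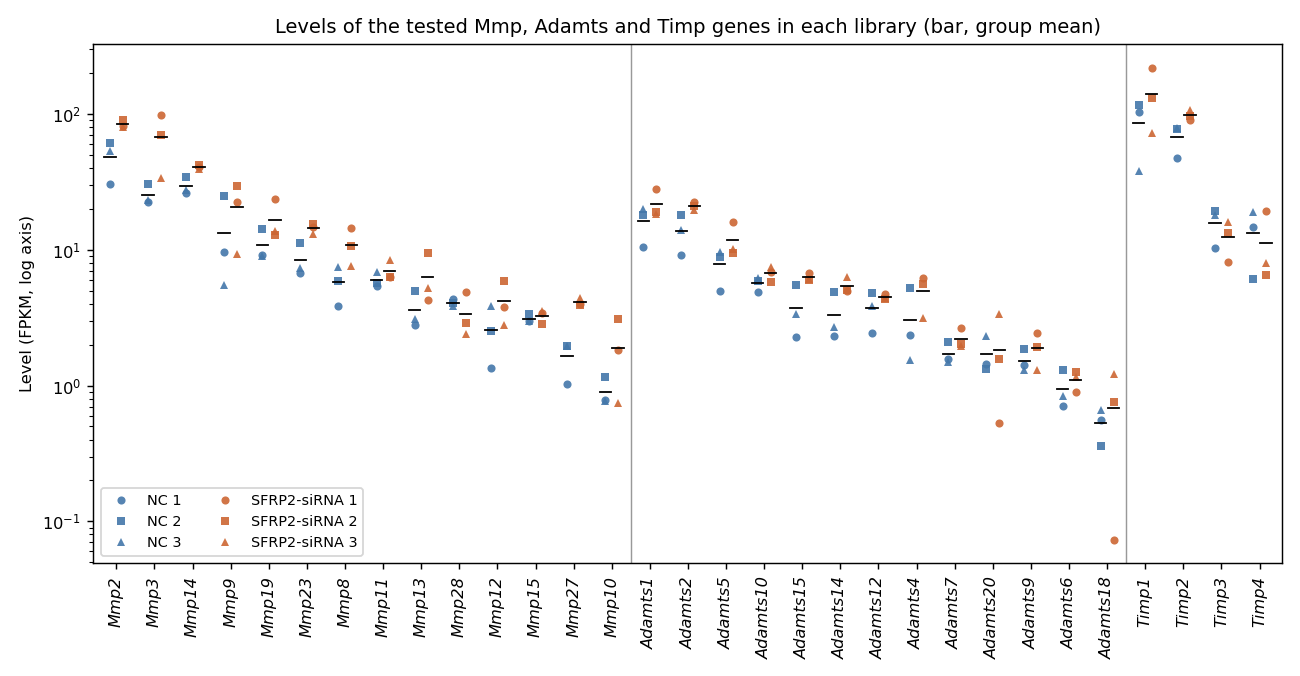
Level of each of the 31 tested genes in FPKM on a log axis, with 1 point for each library (blue, NC; orange, SFRP2-siRNA-labelled libraries) and a bar at each group mean, by family and by mean level. Mmp2, Mmp3 and Mmp14 lead the proteases, Timp1 and Timp2 lead the inhibitors, and the spread is wide for Mmp9, Timp1 and Timp4.

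The gelatinases were examined first among the proteases. Mmp2, gelatinase A, which is made largely by fibroblasts, had 30.6, 61.2 and 53.4 FPKM in NC 1, 2 and 3 and 81.6, 90.1 and 80.3 FPKM in the SFRP2-siRNA-labelled libraries. All 3 of the latter lay above all NC libraries, and NC 1 was the lowest. Mean levels were 48.4 ± 15.9 and 84.0 ± 5.36 FPKM (SD, n = 3 each). The log2 fold change was 0.84 (SE 0.27, unadjusted limma p 0.017). It was 0.55 without NC 1 and 0.86 without the library labelled SFRP2-siRNA 1, and the unadjusted limma p stayed under 0.05 in all 16 alternative fits. Mmp9, gelatinase B, carried by neutrophils and made by macrophages and migrating keratinocytes, had 9.72, 24.9 and 5.51 FPKM in NC and 22.6, 29.7 and 9.33 FPKM in the SFRP2-siRNA-labelled libraries. The groups overlapped widely, with a log2 fold change of 0.68 (SE 0.59, 95% interval -0.71 to 2.08), an interval that holds both no difference and a large one. It was 0.23 without NC 3 and 1.23 without NC 2.

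Stromelysins cut proteoglycans, laminin and fibronectin and activate other proenzymes. Mmp3, stromelysin 1, had 22.6, 30.7 and 23.3 FPKM in NC 1, 2 and 3, and 98.9, 70.2 and 33.8 FPKM in the SFRP2-siRNA-labelled libraries 1, 2 and 3. The NC values lay close together, whereas the others were spread, with the lowest of them just above NC 2. Its means were 25.5 ± 4.51 and 67.6 ± 32.6 FPKM (SD, n = 3 each), a ratio of 2.65. The log2 fold change of 1.26 (SE 0.38, unadjusted limma p 0.014) was the largest of the tested members on this scale and the only one above 1, a size that 1.61% of all genes passed in either direction. It was 0.92 without the library labelled SFRP2-siRNA 1 and 1.18 without NC 1, where the unadjusted limma p was 0.053. With voom Mmp3 had 1.29 and Mmp27 1.38. Mmp10, stromelysin 2, a product of keratinocytes at the wound margin, stood at 0.74 to 3.08 FPKM with overlapping groups, and the library labelled SFRP2-siRNA 3 was the lowest of all 6. Mmp11, stromelysin 3, had 5.44 to 6.91 FPKM in NC and 6.27 to 8.37 FPKM in the SFRP2-siRNA-labelled libraries. Mmp3 and Mmp10 are similar in sequence, and how reads shared between them were counted is not stated.

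Among the collagenases, which open the triple helix of fibrillar collagen, Mmp8, the neutrophil collagenase, had 3.89, 5.89 and 7.496 FPKM in NC. The SFRP2-siRNA-labelled libraries 1, 2 and 3 had 14.6, 10.6 and 7.597 FPKM. The lowest of these and the highest NC library were nearly equal, so the groups were only just apart. For Mmp8 the log2 fold change was 0.81 (SE 0.28, unadjusted limma p 0.024), and it was 0.60 without NC 1 (unadjusted limma p 0.081) and also without the library labelled SFRP2-siRNA 1 (unadjusted limma p 0.057). The summed level of 10 neutrophil markers ran from 1154 to 1812 FPKM in NC and was 4625, 5542 and 999.6 FPKM in the SFRP2-siRNA-labelled libraries 1, 2 and 3. Its groups overlapped, 6 of the 10 markers were higher and none was at 0 in every library. The part of these markers in the values of Mmp8 and Mmp9 was not tested. In bulk tissue, fewer cells of a type and less RNA per cell cannot be told apart. Mmp13, collagenase 3, the main collagenase of mouse skin, had 2.78, 4.94 and 3.09 FPKM in NC and 4.24, 9.55 and 5.27 FPKM in the SFRP2-siRNA-labelled libraries, with overlapping groups and a log2 fold change of 0.64 (unadjusted limma p 0.071) that was 0.34 without the library labelled SFRP2-siRNA 2. Mmp1b was below the level tested, at 0.06 to 0.18 FPKM in NC and 0.12 to 0.58 FPKM in the SFRP2-siRNA-labelled libraries, on 4 to 36 reads. Mmp1a reached at most 0.13 FPKM. The genes are near copies of each other, so their values are uncertain.

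Several of these genes are neighbours. In RefSeq (GRCm38.p6), 10 members follow each other on chromosome 9 with no other protein-coding gene between them, in the order Mmp13, Mmp12, Mmp1b, Mmp3, Mmp1a, Mmp10, Mmp8, Mmp27, Mmp20 and Mmp7. All 6 of them that were tested had a positive log2 fold change, beside 27 of the 31 tested members and 71.8% of all genes tested. The groups did not overlap for Mmp3, Mmp8 and Mmp27, all higher, beside 13.9% of all genes apart and higher. With equal sums without the mitochondrially encoded genes, the groups of Mmp3 and Mmp8 overlapped. The RefSeq windows from 250 bases before to 50 bases after the annotated start were searched on both strands for the AP-1 motif TGANTCA, bound by Fos and Jun, and for the TATA box TATAAA. Such windows were matched for 31 of the 45 members. The windows are printed for Mmp3, Mmp10 and Mmp13, which hold both motifs, and for Mmp8 and Mmp27, which hold no such AP-1 motif. The groups overlapped for Mmp10 and Mmp13. Capitals mark the motifs, and each window is given 5′ to 3′ on the plus strand, at chr9:7445572-7445871 (Mmp3), chr9:7502092-7502391 (Mmp10), chr9:7272264-7272563 (Mmp13), chr9:7558179-7558478 (Mmp8) and chr9:7571146-7571445 (Mmp27).
Mmp3: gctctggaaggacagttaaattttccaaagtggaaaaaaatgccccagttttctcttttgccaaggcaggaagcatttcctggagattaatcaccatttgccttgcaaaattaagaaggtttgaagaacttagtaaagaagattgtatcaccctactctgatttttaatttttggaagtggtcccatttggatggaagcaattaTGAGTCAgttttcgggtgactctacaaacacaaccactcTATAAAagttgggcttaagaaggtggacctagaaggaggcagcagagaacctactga
Mmp10: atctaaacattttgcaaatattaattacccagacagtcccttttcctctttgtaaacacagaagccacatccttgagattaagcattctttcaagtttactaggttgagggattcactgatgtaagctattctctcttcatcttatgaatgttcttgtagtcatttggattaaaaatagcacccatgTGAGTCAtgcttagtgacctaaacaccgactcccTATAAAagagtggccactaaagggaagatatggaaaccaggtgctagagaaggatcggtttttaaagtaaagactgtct
Mmp13: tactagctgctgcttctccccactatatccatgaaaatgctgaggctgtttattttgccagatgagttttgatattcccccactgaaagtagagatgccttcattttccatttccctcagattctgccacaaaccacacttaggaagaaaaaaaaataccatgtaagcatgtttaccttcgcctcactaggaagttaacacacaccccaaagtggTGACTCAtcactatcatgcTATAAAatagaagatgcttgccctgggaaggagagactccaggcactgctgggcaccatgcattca
Mmp8: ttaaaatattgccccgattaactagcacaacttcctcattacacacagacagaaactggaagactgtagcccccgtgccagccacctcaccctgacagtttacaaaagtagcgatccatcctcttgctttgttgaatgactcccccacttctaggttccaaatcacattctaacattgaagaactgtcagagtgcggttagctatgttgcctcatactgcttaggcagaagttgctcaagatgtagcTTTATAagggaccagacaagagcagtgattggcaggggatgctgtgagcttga
Mmp27: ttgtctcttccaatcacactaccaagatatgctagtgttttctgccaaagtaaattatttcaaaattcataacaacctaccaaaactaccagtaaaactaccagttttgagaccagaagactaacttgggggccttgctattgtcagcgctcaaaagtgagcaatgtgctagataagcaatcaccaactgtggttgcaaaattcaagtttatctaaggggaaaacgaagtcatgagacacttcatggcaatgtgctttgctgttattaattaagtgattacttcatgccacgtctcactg

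In Mmp3 the AP-1 motif began at position -46 and the TATA box at -7, counted from the annotated start. They began at -63 and -29 in Mmp10 and at -35 and -16 in Mmp13, so the AP-1 motif lay before the TATA box in all 3 and shared no base with it. Mmp8 held a TATA box at -3 on the minus strand, printed here as TTTATA, and Mmp27 held neither motif. Over all 32851 windows of this length, 7.81% held the AP-1 motif and 13.6% the TATA box. Of the 31 members with a window, 8 held the AP-1 motif, and all 8 lay in the chromosome 9 run, namely Mmp1a, Mmp1b, Mmp3, Mmp7, Mmp10, Mmp12, Mmp13 and Mmp20. A member was counted if any of its windows held the motif, whereas the share over all windows is per window. Mmp7, Mmp12 and Mmp23 had more than 1 window, and in Mmp7 and Mmp12 another window lacked the AP-1 motif. Of the 8 members with a window and groups that did not overlap, 1 held it, Mmp3. A match of letters is not a binding site, and a window without one says nothing about binding elsewhere.

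Mmp27, a relative of the stromelysins, had 1.03, 1.97 and 1.97 FPKM in NC and 4.02, 3.95 and 4.41 FPKM in the SFRP2-siRNA-labelled libraries. The groups were well separated, with the highest NC library far below the lowest of the others, on 100 to 459 reads a library. Means were 1.65 ± 0.54 and 4.12 ± 0.25 FPKM (SD, n = 3 each), a ratio of 2.49. Its log2 fold change of 0.97 (SE 0.18) had the smallest unadjusted limma p of the members, 0.0010, and an adjusted limma p of 0.518. It was 0.98 without the library labelled SFRP2-siRNA 1, it ranged from 0.79 without NC 1 to 1.38 with voom, and the unadjusted p was under 0.05 in all 16 alternative fits.

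Mmp23, a protease with a membrane anchor at its start, had 6.80, 11.3 and 7.32 FPKM in NC and 14.7, 15.5 and 13.1 FPKM in the SFRP2-siRNA-labelled libraries. Each of the latter lay above NC 2, the highest control. The log2 fold change was 0.73 (SE 0.20, unadjusted limma p 0.008), 0.61 without NC 1 and 0.72 without the library labelled SFRP2-siRNA 1. Its unadjusted p also stayed under 0.05 in all 16 alternative fits, as for Mmp2 and Mmp27 and for no other member.

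Of the membrane-type proteases, Mmp14, which activates pro-Mmp2 on the cell surface together with Timp2, had 26.1, 34.6 and 27.4 FPKM in NC. The libraries labelled SFRP2-siRNA had 40.4, 42.1 and 39.7 FPKM, all above NC 2. The difference was smaller than for Mmp2, with a log2 fold change of 0.47 (SE 0.15, unadjusted limma p 0.018), 0.39 without NC 1 and 0.47 without the library labelled SFRP2-siRNA 1. Mmp15 was even across libraries, at 2.84 to 3.54 FPKM, and its log2 fold change of 0.05 turned to -0.077 with median-of-ratios scaling and to -0.034 with equal sums without mitochondrially encoded genes. Mmp17 was below the level tested, with 0.30, 0.32 and 0.35 FPKM in NC and 0.49, 0.44 and 0.48 FPKM in the SFRP2-siRNA-labelled libraries, groups that did not overlap, on 88 to 151 reads. Mmp16 and Mmp24 reached at most 0.20 and 0.03 FPKM.

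Mmp12, Mmp19, Mmp28, Mmp20, Mmp7 and Mmp21 complete the family. Mmp12, the macrophage elastase, had 1.35, 2.52 and 3.86 FPKM in NC and 3.80, 5.92 and 2.77 FPKM in the SFRP2-siRNA-labelled libraries, with overlapping groups. Mmp19, found in keratinocytes and macrophages, was at 9.06 to 14.3 FPKM in NC and 12.8 to 23.5 FPKM in the SFRP2-siRNA-labelled libraries. Mmp28, epilysin, a keratinocyte protease, was the tested Mmp with a negative log2 fold change, -0.25 (SE 0.21), with overlapping groups at 3.85 to 4.34 and 2.38 to 4.88 FPKM. Without the library labelled SFRP2-siRNA 1 its log2 fold change was -0.49 (unadjusted limma p 0.016). Mmp20, known from tooth enamel, had at most 15 reads and lay lower in the SFRP2-siRNA-labelled libraries, at 0.00, 0.01 and 0.01 FPKM against 0.01, 0.07 and 0.10 FPKM in NC. NC 1 and the SFRP2-siRNA-labelled libraries 2 and 3 each had 2 reads of it, so that its groups differ there only by the scaling of equal counts. Mmp7 had at most 2 reads and Mmp21 at most 1, and both were listed at 0 in several libraries. The Mmp genes other than Mmp2, Mmp3, Mmp8, Mmp14, Mmp23 and Mmp27 were named after their values were seen.

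**Figure D2:**
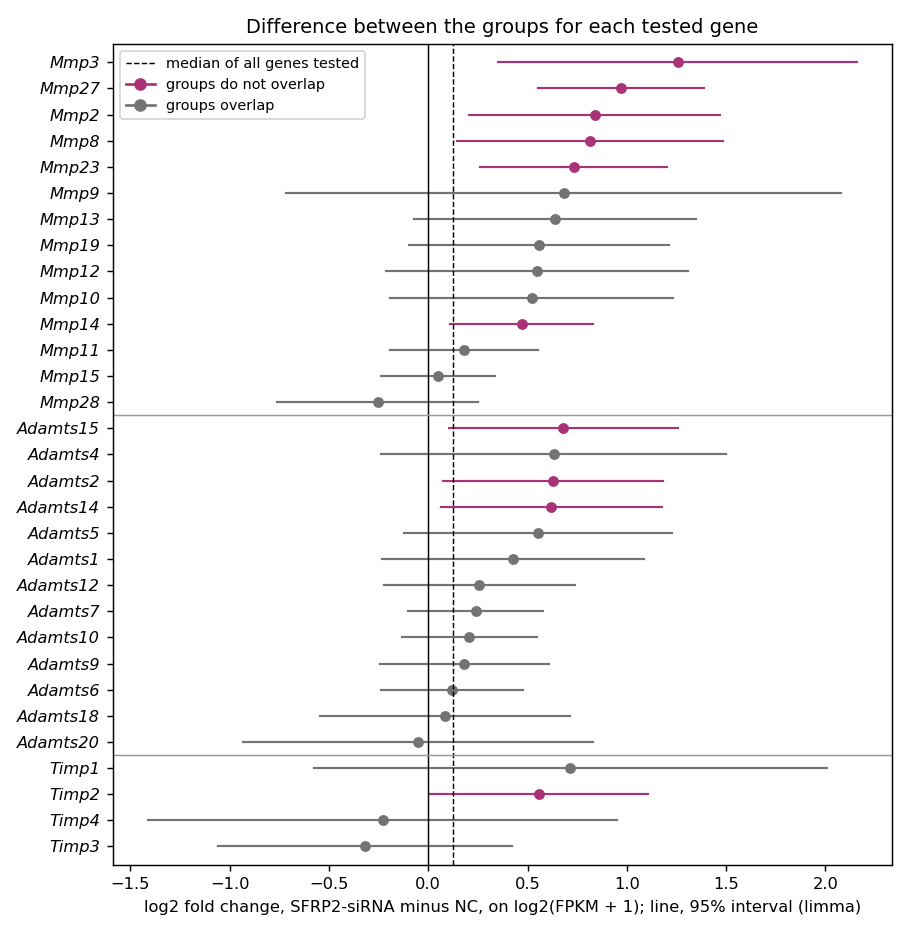
Log2 fold change (SFRP2-siRNA-labelled libraries minus NC, on log2(FPKM + 1)) of each of the 31 tested genes, with its 95% interval from limma. The dashed line is the median over all genes tested, 0.13, and the 10 purple genes are those whose groups did not overlap, led by Mmp3 at 1.26 and Mmp27 at 0.97. No gene passed the test after adjustment over all genes.

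The Adamts genes were taken by role. The procollagen N-proteinases remove the amino-terminal propeptide from fibrillar collagens. Adamts2, the main such enzyme of skin, had 9.20, 17.96 and 14.03 FPKM in NC and 22.4, 21.2 and 19.7 FPKM in the SFRP2-siRNA-labelled libraries. Its groups were apart, with a log2 fold change of 0.63 (SE 0.23, unadjusted limma p 0.031) that was 0.39 without NC 1 and 0.59 without the library labelled SFRP2-siRNA 1 (unadjusted limma p 0.062). Adamts14, its close relative, had 2.30, 4.92 and 2.72 FPKM in NC and 5.003, 5.03 and 6.27 FPKM in the SFRP2-siRNA-labelled libraries. NC 2 lay just below the lowest of the others, so the groups were only just apart. The log2 fold change was 0.62 (SE 0.23, unadjusted limma p 0.034) with 0.45 without NC 1 (unadjusted limma p 0.107) and 0.67 without the library labelled SFRP2-siRNA 1. Adamts3, the other member of the group, was below the level tested at 0.09 to 0.51 FPKM.

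Among the proteoglycan-cutting members, Adamts15 had 2.29, 5.46 and 3.38 FPKM in NC and 6.76, 5.97 and 6.11 FPKM in the SFRP2-siRNA-labelled libraries. The groups were apart, NC 2 lay nearest, and the log2 fold change was 0.68 (SE 0.24, unadjusted limma p 0.027), or 0.45 without NC 1 (unadjusted limma p 0.064) and 0.63 without the library labelled SFRP2-siRNA 1 (unadjusted limma p 0.055). Adamts1, which cuts versican, had the highest mean of the family, with 10.5, 18.1 and 20.1 FPKM in NC and 28.1, 18.9 and 18.5 FPKM in the SFRP2-siRNA-labelled libraries. Adamts5, an aggrecan- and versican-cutting enzyme, had 4.98, 8.89 and 9.62 FPKM in NC and 16.0, 9.43 and 10.1 FPKM in the SFRP2-siRNA-labelled libraries. For both the library labelled SFRP2-siRNA 1 was the highest and NC 1 the lowest, the groups overlapped, and the other 4 libraries were close together. The log2 fold changes were 0.43 for Adamts1 and 0.55 for Adamts5, without the former library they were 0.24 and 0.33, and without NC 1 they were 0.16 and 0.29. Adamts4, an aggrecan-cutting enzyme, ranged from 1.55 to 5.24 FPKM in NC and from 3.15 to 6.204 FPKM in the SFRP2-siRNA-labelled libraries.

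Adamts20 and Adamts18 were spread widely among the SFRP2-siRNA-labelled libraries, and both were lowest in the first of these. Adamts20, which acts in melanoblast survival in developing skin, had 1.44, 1.33 and 2.33 FPKM in NC and 0.53, 1.58 and 3.34 FPKM in the SFRP2-siRNA-labelled libraries 1, 2 and 3. Adamts18 had 0.55, 0.36 and 0.66 FPKM in NC and 0.07, 0.76 and 1.22 FPKM in the SFRP2-siRNA-labelled libraries. The log2 fold change of Adamts20 was -0.05, although its mean was 1.82 against 1.70 FPKM in NC. It and the log2 fold change of Adamts18, 0.09, changed sign under other settings, and without the library labelled SFRP2-siRNA 1 they were 0.33 and 0.38. The hair follicle markers were nearly absent from that same library, with all 9 of the measured markers lower there than in any other, and their part in these values was not tested. The tested Adamts6, Adamts7, Adamts9, Adamts10 and Adamts12 had log2 fold changes of 0.12 to 0.26 and overlapping groups. Adamts8, Adamts13, Adamts16, Adamts17 and Adamts19 reached at most 0.43 FPKM in any library. The Adamts genes other than Adamts1, Adamts2, Adamts5, Adamts14 and Adamts15 were named after their values were seen.

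The inhibitors did not share a direction. Timp1, the inducible inhibitor of wounds, had the highest mean of the members and 103, 117 and 38.1 FPKM in NC 1, 2 and 3. Its levels were 220.0, 131 and 72.0 FPKM in the SFRP2-siRNA-labelled libraries 1, 2 and 3. The third library was the lowest in each group, the groups overlapped, and the log2 fold change of 0.72 (SE 0.54) moved from 0.22 without NC 3 to 1.12 without the library labelled SFRP2-siRNA 3. It was 0.92 without NC 1 and 0.32 without the library labelled SFRP2-siRNA 1. Timp2, widely expressed and a partner of Mmp14, had 47.7, 77.9 and 78.9 FPKM in NC and 91.0, 97.5 and 107 FPKM in the SFRP2-siRNA-labelled libraries. The groups were apart, with a log2 fold change of 0.56 (SE 0.23, unadjusted limma p 0.047), 0.32 without NC 1 (unadjusted limma p 0.072) and 0.62 without the library labelled SFRP2-siRNA 1 (unadjusted limma p 0.053).

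Timp3, which is bound to matrix and also blocks Adamts4 and Adamts5, had 10.2, 19.2 and 18.1 FPKM in NC and 8.14, 13.4 and 16.0 FPKM in the SFRP2-siRNA-labelled libraries. NC 1 and the library labelled SFRP2-siRNA 1 were the lowest of their groups, and the groups overlapped. For Timp3 the log2 fold change was -0.32 (SE 0.31, 95% interval -1.06 to 0.42), and it was -0.06 without the library labelled SFRP2-siRNA 1 and -0.59 without NC 1. Timp4 had 14.7, 6.09 and 19.1 FPKM in NC and 19.3, 6.55 and 8.04 FPKM in the SFRP2-siRNA-labelled libraries. Its log2 fold change of -0.23 (SE 0.50) turned to 0.08 without NC 3, and it was -0.66 without the library labelled SFRP2-siRNA 1. The summed level of 8 adipocyte markers was 2163, 1727 and 2003 FPKM in NC and 2379, 1283 and 892 FPKM in the SFRP2-siRNA-labelled libraries, with NC 2 the lowest NC library in both. Of the 8 markers 7 had a lower mean log2 level, the sums overlapped and none was at 0 in every library. The part of these markers in the values of Timp4 was not tested.

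**Figure D3:**
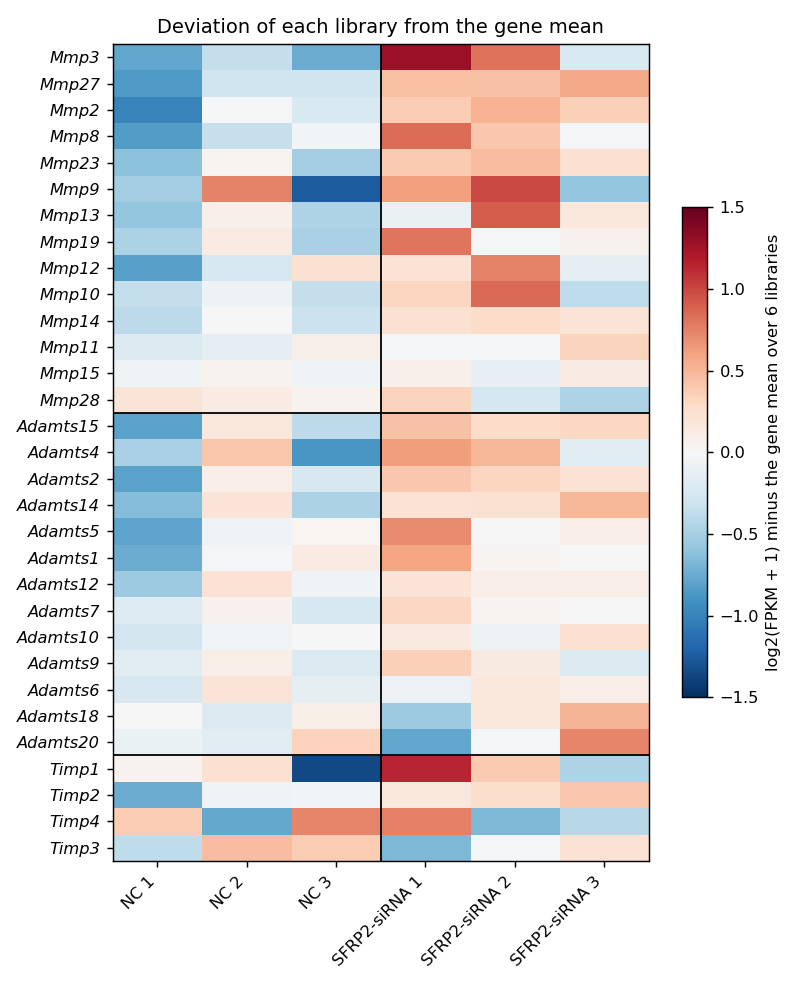
Deviation of each library from the mean over 6 libraries on log2(FPKM + 1) for the 31 tested genes (red, above; blue, below), with the 3 NC libraries on the left. NC 1 is blue for most genes and was the lowest library for 18 of them, and the library labelled SFRP2-siRNA 1 was the highest for 13.

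The libraries did not contribute evenly. NC 1 was the lowest of the 6 for 18 of the 31 tested members and the highest for none. The library labelled SFRP2-siRNA 1 was the highest for 13, the second for 7 and the third for 8. After scaling to equal sums without the mitochondrially encoded genes, NC 1 was still the lowest for 15 members, and the first library labelled SFRP2-siRNA was the highest for 15. The part of the mitochondrial share in the members' values was otherwise not tested. Marker genes of some cell types differed in the same direction as the members. The summed level of 10 fibroblast markers was 998 to 2142 FPKM in NC and 2375 to 2465 FPKM in the SFRP2-siRNA-labelled libraries, and that of 10 macrophage markers was 1077 to 1729 and 1930 to 2571 FPKM. All 10 markers of each list were higher in mean log2 level, the sums as deposited did not overlap, and no marker was at 0 in every library. These marker sums were not rescaled without the mitochondrially encoded genes. NC 1 had the lowest sum of both lists. All 9 skeletal muscle markers were higher as well, with overlapping sums of 3421 to 6604 FPKM in NC and 4593 to 12464 FPKM in the SFRP2-siRNA-labelled libraries. All 9 measured hair follicle markers were lower, and the remaining lists held markers of both directions. Over all genes tested, 71.8% were higher. The part of these cells in the members' values was not tested.

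Proteases and inhibitors were then set against each other within each library, per length of gene. The 22 Mmp genes summed to 128, 207 and 158 FPKM in NC and to 326, 307 and 226 FPKM in the SFRP2-siRNA-labelled libraries. The 19 Adamts genes summed to 45.7, 80.0 and 69.2 FPKM and to 104, 85.5 and 86.3 FPKM. As deposited, both sums did not overlap between the groups, with a two-sided exact permutation p of 0.1, the smallest that 3 against 3 libraries allow. The nearest values were 207 and 226 FPKM for Mmp and 80.0 and 85.5 FPKM for Adamts. The sums were not rescaled without the mitochondrially encoded genes, so the separation may not hold there. The 4 Timp genes summed to 176, 219.8 and 154 FPKM and to 339, 248 and 203 FPKM, with overlap (exact permutation p 0.2). The Mmp sum over the Timp sum was 0.73, 0.94 and 1.02 in NC and 0.96, 1.24 and 1.11 in the SFRP2-siRNA-labelled libraries, also with overlap (exact permutation p 0.2). Genes with the highest levels weigh most in these sums, namely Mmp2, Mmp3 and Mmp14, Adamts1 and Adamts2, and Timp1 and Timp2. Of these, Mmp2, Mmp3, Mmp14, Adamts2 and Timp2 are among the members whose own groups did not overlap.

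A ratio within a library does not depend on its scaling. In all, 13 ratios were computed, chosen after levels had been seen. The groups were apart in 3 of them, and the smallest p from the exact permutation test adjusted over the 13 was 0.433. Mmp2 over Mmp14 was 1.18, 1.77 and 1.95 in NC and 2.02, 2.14 and 2.02 in the SFRP2-siRNA-labelled libraries. Mmp27 over Mmp2 was 0.033, 0.032 and 0.037 in NC and 0.049, 0.044 and 0.055 in the SFRP2-siRNA-labelled libraries, so Mmp27 was higher in each of these libraries also per unit of Mmp2. Adamts5 over Timp3 was 0.49, 0.46 and 0.53 in NC and 1.96, 0.70 and 0.64 in the SFRP2-siRNA-labelled libraries, where the first library stood far above the others. Mmp9 over Timp1 was 0.094, 0.21 and 0.14 in NC and 0.10, 0.23 and 0.13 in the SFRP2-siRNA-labelled libraries, nearly the same 3 values in both groups. Mmp2 over Timp2, Mmp14 over Timp2 and Mmp3 over Timp1 overlapped. Set against fibroblast genes, Mmp2 over the receptor gene Pdgfra was 4.33 to 6.28 in NC and 4.11 to 5.80 in the SFRP2-siRNA-labelled libraries. Adamts2 over the collagen gene Col1a1 was 0.027 to 0.055 and 0.029 to 0.031, also with overlap. Pdgfra is among the 10 fibroblast markers, and Mmp2 was not set against the others. The log2 fold changes of these markers ran from 0.39 (Pdgfrb) to 0.98 (Col3a1). That of Pdgfra was 0.83 and that of Mmp2 0.84, so a ratio to another marker could differ.

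**Figure D4:**
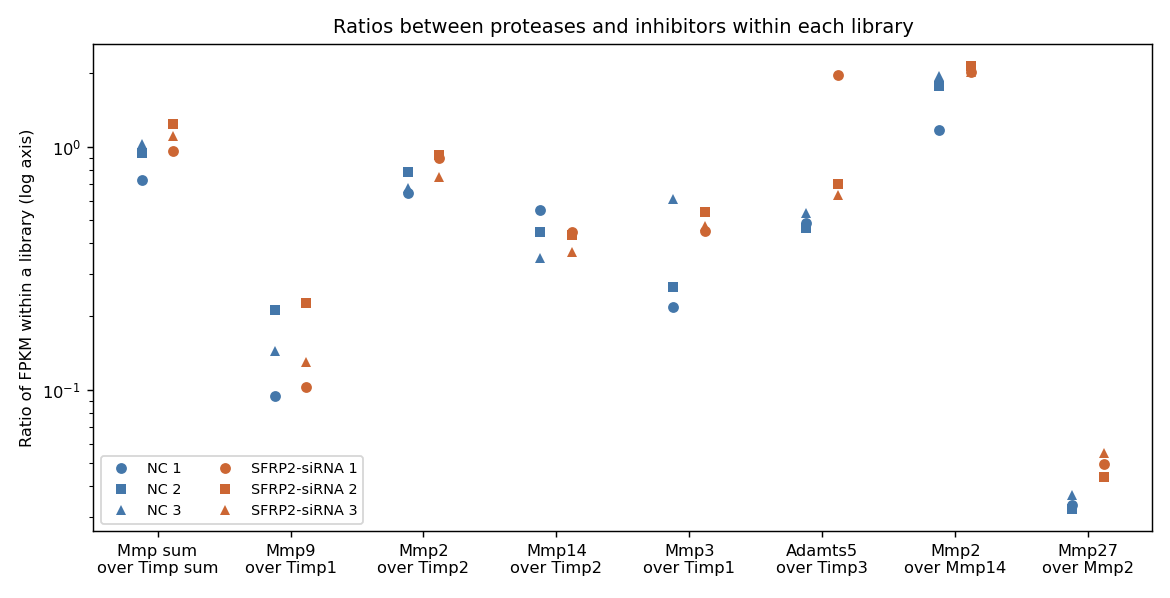
Ratios between FPKM values of 2 genes, or of 2 family sums, within each library, on a log axis (blue, NC; orange, SFRP2-siRNA-labelled libraries; the symbol gives the replicate number). The groups are apart for Mmp2 over Mmp14, Adamts5 over Timp3 and Mmp27 over Mmp2, and Mmp9 over Timp1 takes nearly the same values in both groups.

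A list of 46 other genes of extracellular proteolysis, namely activators, inhibitors, receptors and neighbouring protease families, was set beside the members. Of these, 38 were tested, 36 had a positive and 2 a negative log2 fold change, and the median was 0.41. With median-of-ratios scaling 31 of the 38 were positive and the median was 0.26. An unadjusted limma p under 0.05 was found for 10, all higher (26.3%), beside 9.58% of all genes, and the smallest adjusted limma p in the list was 0.518. Without NC 1 there were 2 such genes, beside 5.54% of all genes, and without NC 2 there were 17, beside 12.3%. The groups did not overlap for 11, all higher, beside 13.9% of all genes, and 7 of these also had an unadjusted limma p under 0.05. Among the 7 were Reck, a membrane-anchored inhibitor of Mmp2, Mmp9 and Mmp14, with 3.02 ± 0.85 and 4.67 ± 0.80 FPKM (log2 fold change 0.51), Spock2 (0.45), a matrix proteoglycan of the testican family, and Serpinb2 (0.77), an inhibitor of plasminogen activators. Bmp1, which removes the carboxy-terminal propeptide of collagens and so complements Adamts2, had 16.997, 29.0 and 19.6 FPKM in NC and 35.7, 33.4 and 31.0 FPKM in the SFRP2-siRNA-labelled libraries (log2 fold change 0.62). Among lysosomal cysteine proteases, Ctsk, a collagen-cutting cathepsin, and Ctss, the cathepsin of antigen-presenting cells, had log2 fold changes of 0.81 and 1.07. Adam33, of a neighbouring protease family, had a log2 fold change of 0.60. Ctss stood at 121, 279 and 178 FPKM in NC and at 499, 352 and 319 FPKM in the SFRP2-siRNA-labelled libraries, so the groups were apart and NC 1 was again the lowest.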

How the data were processed

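RNA was sequenced from 6 frozen wound tissues. From paired-end mRNA libraries the authors made FPKM values for 33184 Ensembl genes, deposited as 1 table. The submitters' processing notes name HISAT2, featureCounts and Subread, with no version or setting. The genome build, annotation and strand setting are not given in the sources used here. Symbols matched 32582 genes and left 602 without one. One further gene that matches the name pattern is not reported here.

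The study used a count model with thresholds of 1 on the absolute log2 fold change and 0.05 on the adjusted p. FPKM are not counts, so log2(FPKM + 1) was compared with limma 3.58.1 (intensity trend, two-sided, R 4.3.3) over the 16005 genes averaging 0.5 FPKM or more, with Benjamini-Hochberg adjustment and those thresholds. Fold changes on this scale understate the change of low genes. Tested on simulated data with 200 of 16005 genes changed by 2 on the log2 scale, limma recovered 87.3% of them and made 5.4 false calls on average. The largest log2 fold change of a tested member was 1.26, and recovery of changes of that size or smaller was not simulated. The simulated spread was drawn for each gene on its own, without a shift shared by a whole library. Sums, ratios and single levels were put to an exact permutation test, two-sided.

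Gene lengths from GENCODE vM21 turned the FPKM of 96.6% of genes into whole reads (within 0.05 reads), and 44 of the 45 members were among them. Reads of a pair were counted singly, since 64.6% of values from 1 to 20 reads were even, so reads are not independent. Libraries of a group differed by far more than sampling noise, and none was a repeat of another.

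Groups were taken from the titles. The members and lists were chosen with earlier results of these data known. The text names Sfrp2, every Timp, members with an unadjusted p under 0.05, an absolute log2 fold change above 1 or groups that do not overlap, and the 3 Mmp and 3 Adamts genes with the highest mean, with other names marked where given. Of the other proteolysis list it names genes with an unadjusted p under 0.05 and groups that do not overlap. Alternatives changed the pseudocount (0.1), the filter (none, or 2 FPKM), the scaling (median-of-ratios, equal sums) and the trend (none), added a replicate block, or left out each library. Limma voom on the reads, also with library sizes by median of ratios, and equal sums without mitochondrially encoded genes were added after the data were seen. Promoter windows came from RefSeq (GRCm38.p6).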

Additional observations from a re-analysis of the deposited data

How the results depend on the processing

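No member had an adjusted p under 0.05 in any fit, and the smallest adjusted p of a member was 0.231, in limma without the library labelled SFRP2-siRNA 1. At an unadjusted p under 0.05, 10 members were counted in the reported fit, beside 9.58% of all genes. There were 5 with equal sums without mitochondrially encoded genes, an alternative chosen after seeing the data, all 5 higher. Of all genes, 6.64% were at that level there. Leaving out each library gave 4 to 13 members, 4 to 13 of them higher and 0 to 1 lower, beside 5.54% to 12.3% of all genes. The other proteolysis list had 10 genes at that level, 5 with equal sums without mitochondrially encoded genes, and 2 to 17 when a library was left out. Its lowest count came without NC 1 and its highest without NC 2, where 5.54% and 12.3% of all genes were at that level. Groups that did not overlap were found for 10 members as deposited, 6 with median-of-ratios scaling (all higher) and 5 with equal sums without mitochondrially encoded genes (all higher). Over all genes, 13.9%, 5.27% and 4.42% were apart and higher in these settings. Without a filter, 1 member was apart and lower, Mmp20, on equal counts of 2 reads in NC 1 and in 2 of the other libraries. In that fit 11 members had an unadjusted p under 0.05, beside 6.71% of all genes. The cause of these shifts was not tested.

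Over 39 named genes and their alternatives, 606 of 618 values had the reported sign and missed the adjusted threshold as reported, and 12 in 4 genes changed sign. Mmp15 went to -0.077 with median-of-ratios scaling, -0.034 with equal sums without mitochondrially encoded genes and -0.090 with voom and median-of-ratios library sizes. Adamts18 went to -0.074 with a pseudocount of 0.1, -0.28 with voom, -0.42 with voom and median-of-ratios library sizes, and -0.15 without the library labelled SFRP2-siRNA 3. Adamts20 went to 0.0026 with equal summed FPKM, 0.11 without NC 3 and 0.33 without the library labelled SFRP2-siRNA 1, its range being -0.43 to 0.33 when a library was left out. Timp4 went to 0.081 without NC 3 and 0.053 without the library labelled SFRP2-siRNA 2, its range being -0.67 to 0.081.

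The replicate numbers were checked as a pairing. The deviations of same-numbered libraries from their group means correlated at -0.05, -0.15 and 0.38. Those of differently numbered libraries correlated at -0.36 to 0.32. With 3 libraries a group these values cannot tell whether the numbers mark a pairing. With the replicate block, 13 members had an unadjusted p under 0.05, beside 12.1% of all genes, and 0 an adjusted one.

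With 3 libraries a group, the intervals of single members are wide. Of the members below 0.5 FPKM, Mmp7 had at most 2 reads a library, Mmp20 at most 15 and Mmp17 88 to 151.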
